A study of Hyacinthus orientalis with 189 samples.

Results

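Plant aquaporins of the hyacinth perianth were taken as all unigenes whose best Swiss-Prot match was described as an aquaporin of the PIP, TIP, NIP or SIP kind or as a probable aquaporin, and they were followed over stage, partition and cultivar. A unigene is the longest transcript of a cluster of de novo assembled transcripts, and 141 of 494326 unigenes met this rule. The rule used only the wording of the match and no expression value. The RNA-Seq libraries came from *Hyacinthus orientalis* L., with the red 'Jan Bos', the pink 'Pink Pearl', the orange 'Gipsy Queen', the yellow 'City of Haarlem', the pinkish white 'China Pink', the blue 'Delft Blue' and the dark purple 'Peter Stuyvesant'. Green buds (Stage B), coloured buds (Stage C) and open flowers in full anthesis (Stage A) were sampled, and each of the 63 flowers was cut into perianth tube, outer lobes and inner lobes after its stamens and pistil had been removed. Each partition of a flower gave 1 library, with 3 flowers for each cultivar and stage, 21 flowers per stage and 21 libraries for each stage and partition. All plants were grown outdoors with natural sunlight from vernalised bulbs that had been soaked in the fungicide tetrachlorophthalonitrile, no treatment was compared, and 'China Pink' is described as a sport of 'Delft Blue', that is, a bud mutant of it. The flowers of a cultivar and stage are given as biological replicates, but whether they came from separate bulbs is not stated in the sources used here. The p-values between stages and cultivars therefore measure the spread between these flowers. Those between partitions rest on single libraries with no term for the flower, so they mix spread between flowers and within them.

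Aquaporins are membrane channels of the major intrinsic protein family that let water, and in some members small neutral solutes, pass down their gradient. Plasma membrane intrinsic proteins (PIPs) sit in the plasma membrane, where PIP2 members are efficient water channels and many PIP1 members need a PIP2 partner to reach the membrane. Tonoplast intrinsic proteins (TIPs) serve the vacuole, nodulin 26-like intrinsic proteins (NIPs) include channels for boric acid, silicic acid and glycerol, and small basic intrinsic proteins (SIPs) lie in the endoplasmic reticulum. Petals open mainly by cell expansion, which draws water across the plasma membrane and into the vacuole.

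The members comprised 17 PIP1, 28 PIP2, 4 other PIP, 7 TIP1, 21 TIP2, 19 other TIP, 37 NIP and 8 SIP unigenes. The best match came from maize for 44 members, from rice for 42 and from *Arabidopsis thaliana* for 26, so the isoform names used here are those of the matched protein in another species and not names of hyacinth genes. The major intrinsic protein domain was annotated in 119 of the 141. Their lengths were 304 to 4506 bp with a median of 815 bp, and 54 were shorter than 700 bp, so a fragment, an allele and a separate gene cannot be told apart among members of the same isoform name. Reads shared by near-identical unigenes were split between them by the counting, so the level of a single member within such a group is uncertain. FPKM (fragments per kilobase of unigene, scaled to the library total) relates a count to length, but the deposited values imply an effective length shorter than the unigene by a median of 289.8 bp, which raises the FPKM of short unigenes. For the shortest member, PIP1-2 (Cluster-20417.241826) of 304 bp, the implied length was only 36.7 bp.

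Total counts per library were 12602472 to 20175882, and those of a whole flower were 39221793 to 48957630. A unigene was tested between stages and cultivars on the summed counts of a flower, and between partitions on the libraries, if it had at least 10 counts in at least 3 of them. By this filter 124 members were tested on flowers and 115 on libraries. A call needed an adjusted p under 0.05 over all unigenes tested and an absolute log2 fold change over 1, except in the test between all 7 cultivars, where the fitted cultivar terms had to span more than 1, and in the tests of interaction, which used the adjusted p alone. Scaling mattered for the stages. The 100 most abundant unigenes held a median of 12.5% of counts in Stage B libraries, 16.4% in Stage C libraries and 18.9% in Stage A libraries. The part of this in the scaling was not tested. The fold changes used trimmed-mean (TMM) scaling, and scaling by library totals, on which FPKM rests, would lower the log2 fold changes by 0.49 on average for Stage C against Stage B, by 0.65 for Stage A against Stage B and by 0.15 for Stage A against Stage C. The median over all unigenes was -0.25 for Stage C against Stage B and -0.27 for Stage A against Stage B with TMM scaling. Unigenes matching B-class floral identity genes, which mark a petaloid perianth and stamens, summed to 1673 FPKM in the median tube library, against 1899 FPKM in outer lobes and 2125 FPKM in inner lobes. Libraries of 3 flowers stood apart. In 'City of Haarlem' Stage C replicate 3 the stamen and carpel markers summed to 1.32 FPKM in the library labelled tube, against 16.5 FPKM in the library labelled outer lobes. 'City of Haarlem' Stage B replicate 1 had 11.7 FPKM of these markers in the tube, against 13.2 FPKM in the inner lobes. The perianth markers of 'Gipsy Queen' Stage A replicate 2 summed to 88.5 to 370.2 FPKM, against 805 to 1308 FPKM in the other flowers of that cultivar and stage. These libraries were kept under their labels. Without the 3 flowers the members called were 58 in place of 60 for Stage C against Stage B, 56 in place of 59 for Stage A against Stage B, 26 in place of 23 for Stage A against Stage C, 17 in place of 15 for tube against lobes, 95 in place of 96 between cultivars, 58 in both for stage by cultivar, and 51 in place of 47 for partition by stage.

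Aquaporin transcripts were abundant, and a few members made up most of the level. Of the 141 members, 78 had a mean of at least 1 FPKM over all libraries, 56 of at least 10 FPKM and 25 of at least 100 FPKM, and the 10 highest held 74.4% of the summed mean FPKM. By class, PIP1 held 32.3% of this sum, TIP1 29.4%, PIP2 26.8%, other TIP 5.42%, TIP2 2.32%, NIP 1.74%, SIP 1.36% and the other PIP 0.665%. TIP1-1 (Cluster-20417.238579), a match to the vacuolar water channel TIP1-1 of maize, was the most abundant, with a mean of 4554 FPKM. It was followed by PIP1-1 (Cluster-20417.237784) with 2547 FPKM, PIP2-4 (Cluster-20417.238902) with 1968 FPKM and PIP1-2 (Cluster-20417.239564) with 1313 FPKM. This PIP1-1 is a unigene of 519 bp with an implied length of 229.8 bp. It had 139783 to 306187 counts per cultivar, against 620503 to 1175390 for PIP1-2 (Cluster-20417.239564). The highest member of the other classes was TIP-type (Cluster-20417.239836) with 676 FPKM in other TIP, TIP2-2 (Cluster-20417.239053) with 286 FPKM in TIP2, SIP1-2 (Cluster-20417.244811) with 201 FPKM in SIP and NIP5-1 (Cluster-20417.211511) with 82.4 FPKM in NIP. The rank of this NIP5-1 rests on a unigene of 342 bp with an implied length of 67.5 bp. It had 1375 to 2804 counts per cultivar, against 4367.2 to 15032.5 for NIP1-1 (Cluster-20417.235423).

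Over the 3 stages the summed level of all members was highest in coloured buds. The sum in a flower, taken as the mean of its 3 partitions, was 9689.6 to 15620.1 FPKM (median 12070.3) in Stage B flowers, 18805 to 39044 FPKM (median 28048) in Stage C flowers and 6533 to 25033 FPKM (median 16908) in Stage A flowers. Every Stage C flower lay above every Stage B flower, while Stage A overlapped with both. The PIP1 sum was 1965 to 3527 FPKM (median 2696), 7023 to 14552 FPKM (median 9726) and 2602 to 9369 FPKM (median 5536) in the same order, so that the mean of Stage C was 3.67 times that of Stage B. The ratio of Stage C to Stage B was 2.17 for PIP2 and 2.35 for TIP1, and that of Stage A to Stage C was 0.603 for PIP1, 0.740 for PIP2 and 0.538 for TIP1. The TIP2 sum followed another course, with 549 to 1268 FPKM (median 783) in green buds, 62.4 to 893 FPKM (median 259) in coloured buds and 24.1 to 205 FPKM (median 130.5) in open flowers. TIP2-2 (Cluster-20417.239053) alone held 65.1% of the summed mean FPKM of TIP2. All Stage A flowers were below all Stage B flowers in the TIP2 sum. The NIP sum averaged 437 ± 180.1 FPKM, 313 ± 107 FPKM and 239 ± 67.2 FPKM over the stages, and the SIP sum 223 ± 39.5 FPKM, 245 ± 39.8 FPKM and 306 ± 91.5 FPKM (SD, n = 21 flowers each), with overlap between all stages in both. Sums over members were not tested. In bulk RNA of a whole partition, fewer cells of a kind and less RNA per cell cannot be told apart.

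**Figure D1:**
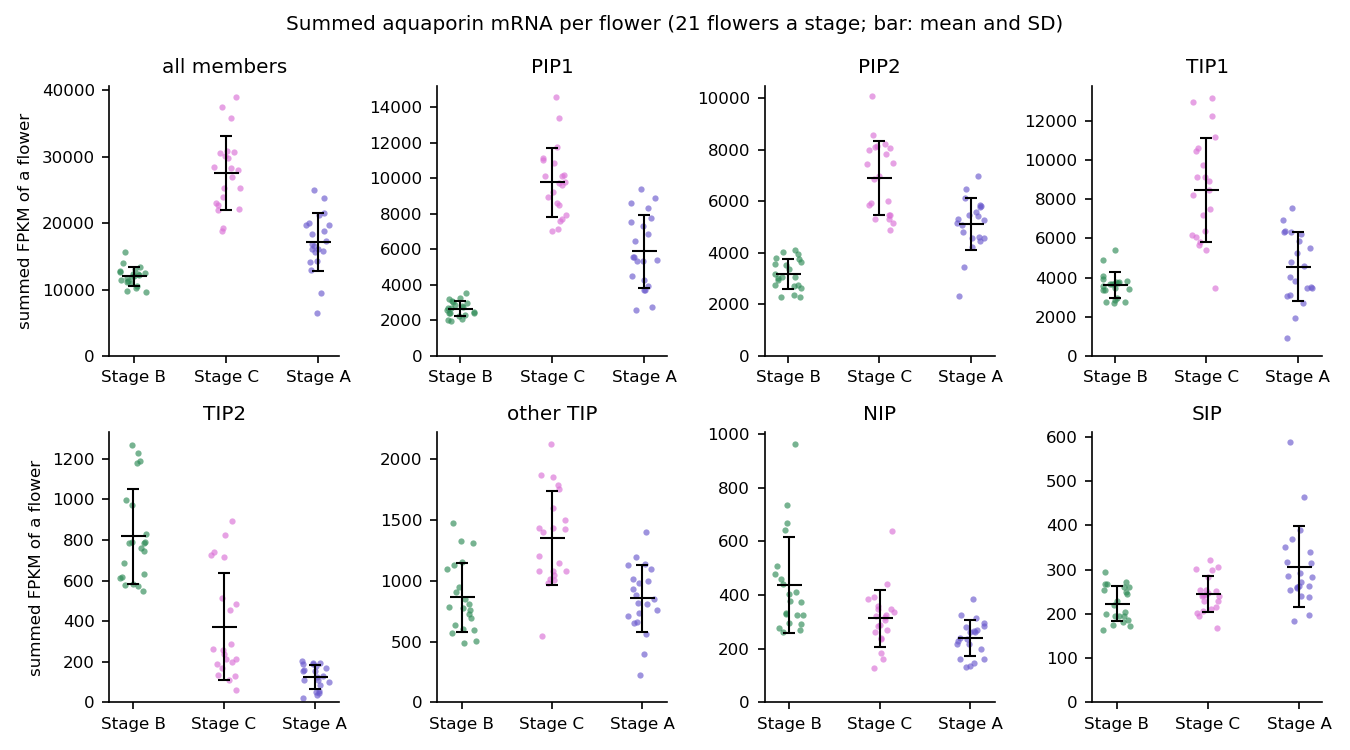
Summed FPKM of the members of each class in each flower (y axis, FPKM) by stage (x axis, Stage B, C and A). Points are the 21 flowers of a stage and bars are the mean ± SD. The sum over all members averaged 11991 ± 1410.2 FPKM in Stage B, 27554 ± 5549 FPKM in Stage C and 17151 ± 4366 FPKM in Stage A flowers, and the mean TIP2 sum was lower at each later stage.

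Stage C was compared with Stage B to see which aquaporins changed as the bud coloured. Of 124 members tested, 34 were higher and 26 lower at Stage C, that is, 48.4% called, against 36.7% of all unigenes (14.4% higher and 22.3% lower). The median log2 fold change was 0.11 over the members and -0.25 over all unigenes. With library totals in place of TMM the split was 22 higher and 37 lower, against 19388 and 78970 of all 202252 unigenes. The medians were then -0.33 over the members and -0.73 over all unigenes. With DESeq2 size factors the split was 30 and 30, against 25446 and 54479. By class, 10 PIP1 were higher and 1 lower of 17, 10 PIP2 higher and 3 lower of 24 tested, and 3 TIP1 higher and 0 lower of 6 tested. In TIP2, 0 were higher and 5 lower of 19, in other TIP 5 higher and 3 lower of 17, in NIP 6 higher and 9 lower of 29, in SIP 0 higher and 3 lower of 8, and in the other PIP 0 higher and 2 lower of 4. Among the 56 members with a mean of at least 10 FPKM, 25 were higher and 9 lower. The called log2 fold changes were 1.02 to 6.85 for the higher and -3.93 to -1.06 for the lower members. Markers of other tissue moved with the stages too. Of the 60 stamen and pollen markers 49 were tested, and 26 were higher and 10 lower at Stage C against Stage B (median log2 fold change 1.14), 3 higher and 5 lower at Stage A against Stage C, and 26 higher and 11 lower at Stage A against Stage B (median 1.69). Their summed level in a library was 414 to 1785 FPKM (median 1007) in green buds, 630.4 to 2868 FPKM (median 1164) in coloured buds and 349.5 to 5604 FPKM (median 869) in open flowers. Of 15 tested B-class perianth identity markers, 0 were higher and 3 lower at Stage C against Stage B, and 0 higher and 6 lower at Stage A against Stage B. The part of these markers' tissues in the stage results was not tested.

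The 4 PIP1 and the 4 PIP2 unigenes with the highest mean FPKM rose as the bud coloured. PIP2-2 (Cluster-20417.233259), with a mean of 255 FPKM, ranked below PIP2-6 (Cluster-20417.232834, 349 FPKM) and PIP2-1 (Cluster-20417.236297, 266 FPKM). This PIP2-2 had a log2 fold change of 0.89 and was not called. PIP1-1 (Cluster-20417.237784) had 1776 to 6627 FPKM (median 4322) at Stage C, against 335 to 929 FPKM (median 535) at Stage B (log2 fold change 3.39 ± 0.16 (SE), adjusted p = 8.91e-27). PIP1-2 (Cluster-20417.239564) had 1068 to 3388 FPKM (median 2171) at Stage C, against 198 to 426 FPKM (median 265) at Stage B (log2 fold change 3.42 ± 0.15 (SE), adjusted p = 5.06e-28). PIP2-4 (Cluster-20417.238902), a match to a plasma membrane water channel of maize, had 1580.0 to 4278 FPKM (median 2932) at Stage C, against 636 to 1251 FPKM (median 779) at Stage B (log2 fold change 2.29 ± 0.12 (SE), adjusted p = 2.04e-24). In these 3 unigenes every Stage C flower exceeded every Stage B flower. The next abundant PIP2 members moved less: PIP2-4 (Cluster-20417.237778) rose by a log2 fold change of 1.42, PIP2-2 (Cluster-20417.237802) by 1.43 and PIP2-7 (Cluster-20417.240970) by 1.49 (adjusted p = 8.70e-20, 3.51e-19 and 4.92e-21). With library totals these 3 values were 0.93, 0.94 and 0.995, just under the threshold.

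Other PIP1 members peaked in coloured buds. PIP1-2 (Cluster-20417.236898) had 373 to 716 FPKM (median 482) in green buds, 382 to 1748 FPKM (median 838) in coloured buds and 224 to 509 FPKM (median 368) in open flowers. It rose at Stage C against Stage B (log2 fold change 1.49 ± 0.12 (SE), adjusted p = 3.83e-16) and fell at Stage A against Stage C (log2 fold change -1.19 ± 0.12 (SE), adjusted p = 1.14e-11). PIP1-2 (Cluster-20417.238132) and PIP1-1 (Cluster-20417.242774) took the same course, with 1.50 and 1.47 for Stage C against Stage B (adjusted p = 1.04e-16 and 2.64e-17), and -1.13 and -1.32 for Stage A against Stage C (adjusted p = 2.34e-11 and 7.20e-14). All 7 cultivars had a higher mean at Stage C than at Stage B, and a lower one at Stage A than at Stage C, in these 3 unigenes. Of the 124 members, 6 were called higher at Stage C and then lower at Stage A, and all 6 were PIP1. The share of all unigenes with this course was not counted, so nothing particular to aquaporins follows from it. Both steps share the Stage C flowers. Under library totals the rise of Cluster-20417.236898 was 0.99 and that of Cluster-20417.242774 was 0.98, both just under the threshold. Without replicate 1 the falls of Cluster-20417.236898 and Cluster-20417.238132 at Stage A were -0.99 and -0.98 and no longer called.

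Among vacuolar members, the most abundant TIP1-1 and TIP2-2 unigenes moved in opposite directions. Of the 19 tested TIP2, 26.3% were lower at Stage C, against 22.3% of all unigenes. The TIP2-1 unigenes Cluster-20417.240547 and Cluster-20417.223721 each had a higher mean FPKM at Stage C in 3 cultivars and a lower one in 4. TIP1-1 (Cluster-20417.238579) had 2993 to 11255 FPKM (median 7428) at Stage C, against 1931 to 4138 FPKM (median 2699.8) at Stage B (log2 fold change 1.84 ± 0.16 (SE), adjusted p = 1.85e-15). All but 1 of the 21 Stage C flowers exceeded every Stage B flower. TIP1-1 (Cluster-20417.237269), whose closest entry in the Nr database is a hyacinth protein, rose by 1.74 (adjusted p = 4.61e-13), and TIP-type (Cluster-20417.239836), a match to a TIP of alfalfa, by 1.83 (adjusted p = 5.12e-16). TIP1-1 (Cluster-20417.241870) and TIP1-1 (Cluster-20417.237154) did not pass, at 0.72 and 0.42. In contrast, TIP2-2 (Cluster-20417.239053) had 5.18 to 639 FPKM (median 111) at Stage C, against 333 to 995 FPKM (median 593) at Stage B (log2 fold change -1.30 ± 0.30 (SE), adjusted p = 2.08e-04). The Stage C flowers of this unigene covered a wide range and overlapped with Stage B. TIP2-2 (Cluster-20417.240265) fell by 1.23 on the log2 scale (adjusted p = 8.28e-05), a call lost without replicate 2 at -0.91, and TIP-type (Cluster-20417.235695) fell by 1.75 (adjusted p = 5.27e-06).

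NIP members moved in opposite directions by isoform. NIP3-1 (Cluster-20417.238206), a match to a rice NIP that conducts boric acid, had 6.75 to 31.9 FPKM (median 13.8) at Stage C, against 1.51 to 4.68 FPKM (median 2.97) at Stage B (log2 fold change 2.97 ± 0.13 (SE), adjusted p = 2.00e-28). NIP3-1 (Cluster-20417.195961) had 10.2 to 35.1 FPKM (median 19.98) at Stage C, against 2.33 to 6.81 FPKM (median 4.32) at Stage B (log2 fold change 2.72 ± 0.13 (SE), adjusted p = 1.80e-26). No flower of the later stage overlapped with Stage B in either. The NIP5-1 unigenes Cluster-20417.211511 and Cluster-20417.219030, matches to the *Arabidopsis* channel that takes up boric acid in roots, rose by 1.54 and 1.10 (adjusted p = 1.47e-14 and 2.00e-06), although the second value was 0.95 with DESeq2, with its size factors and without replicate 1, and 0.61 with library totals. NIP1-3 (Cluster-20417.243490) fell to 14.8 to 161 FPKM (median 30.5) at Stage C, against 62.9 to 408 FPKM (median 125) at Stage B (log2 fold change -1.50 ± 0.15 (SE), adjusted p = 5.58e-13). NIP1-1 (Cluster-20417.235423) and NIP1-1 (Cluster-20417.225917) fell by 1.67 and 2.21 on the log2 scale (adjusted p = 3.26e-13 and 4.04e-11). NIP1-1 (Cluster-20417.159465), low throughout, had 0 to 0.563 FPKM (median 0.183) at Stage C, against 0.297 to 7.76 FPKM (median 2.32) at Stage B (log2 fold change -2.84 ± 0.30 (SE), adjusted p = 2.31e-14).

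SIP members, found in the endoplasmic reticulum in *Arabidopsis*, were mostly not called between green and coloured buds. SIP1-2 (Cluster-20417.244811) had 127 to 259 FPKM (median 188) at Stage C, against 116 to 220.0 FPKM (median 156) at Stage B, and did not pass (log2 fold change 0.71). The 3 members that fell were SIP2-1 unigenes with means under 5 FPKM. SIP2-1 (Cluster-20417.179381) had 0 to 0.327 FPKM (median 0.0267) at Stage C, against 0 to 3.18 FPKM (median 1.35) at Stage B (log2 fold change -3.93 ± 0.29 (SE), adjusted p = 6.08e-18), and it held 0 counts in every flower of 'Pink Pearl' and of 'Gipsy Queen'. SIP2-1 (Cluster-20417.270452) had 0 to 0.303 FPKM (median 0.0933) at Stage C, against 0.187 to 4.37 FPKM (median 1.40) at Stage B (log2 fold change -3.29 ± 0.28 (SE), adjusted p = 1.51e-16).

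**Figure D2:**
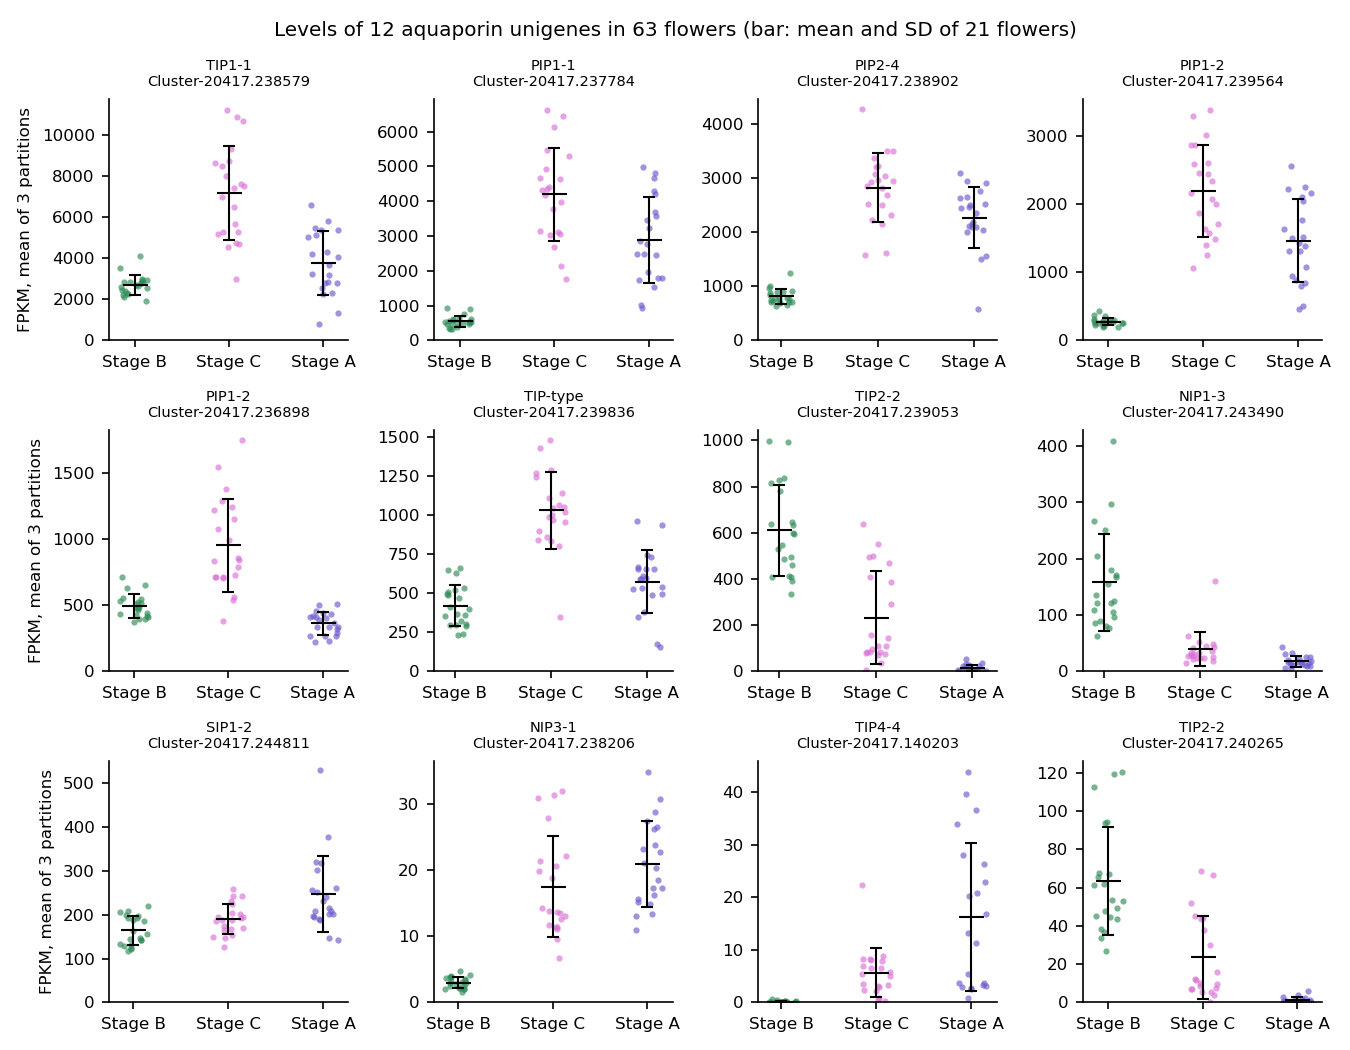
FPKM of 12 members in each flower (y axis, FPKM) by stage (x axis, Stage B, C and A); points are the 21 flowers of a stage and bars the mean ± SD. The unigenes were picked from the named members after their values were seen. PIP1-1 Cluster-20417.237784 had medians of 535, 4322 and 2765 FPKM at Stage B, C and A, whereas TIP2-2 Cluster-20417.239053 had 593, 111 and 7.21 FPKM.

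Stage A was compared with Stage C for the step to full anthesis. Here 3 members were higher and 20 lower of 124, that is, 18.5% called, against 17.5% of all unigenes (9.44% higher and 8.08% lower). The total share was near that of all unigenes, but the split was not: the median log2 fold change was -0.32 over the members and 0.00 over all unigenes. The lower members comprised 6 of 17 PIP1, 4 of 24 PIP2, 3 of 19 TIP2, 1 of 17 other TIP, 4 of 29 NIP and 2 of 4 other PIP, while 0 of 6 TIP1 and 0 of 8 SIP were called. At an unadjusted p under 0.05, 60 of the 124 members differed, against 84956 of 202252 unigenes. The 56 members with a mean of at least 10 FPKM gave 0 higher and 12 lower. Library totals gave 3 higher and 26 lower members, against 15780 higher and 21538 lower of all 202252 unigenes.

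TIP2-2 unigenes showed the largest fall to anthesis among the named members. TIP2-2 (Cluster-20417.239053) had 0.577 to 53.6 FPKM (median 7.21) at Stage A, against 5.18 to 639 FPKM (median 111) at Stage C (log2 fold change -3.86 ± 0.33 (SE), adjusted p = 7.55e-14). TIP2-2 (Cluster-20417.240265) had 0 to 5.94 FPKM (median 0.440) at Stage A, against 0.473 to 68.7 FPKM (median 11.9) at Stage C (log2 fold change -4.11 ± 0.35 (SE), adjusted p = 2.70e-14). The mean was lower at Stage A in all 7 cultivars for both, although the ranges overlapped. TIP-type (Cluster-20417.235695) fell by 2.38 (adjusted p = 2.39e-08) and NIP1-1 (Cluster-20417.225917) by 1.32 (adjusted p = 6.82e-05), the second being -0.99 and not called without 'Peter Stuyvesant'. TIP1-1 (Cluster-20417.238579) had 784 to 6598 FPKM (median 3659) at Stage A, against 2993 to 11255 FPKM (median 7428) at Stage C, with a log2 fold change of -0.77 ± 0.15 that did not reach the threshold of size (adjusted p = 5.73e-05). The 3 members that were higher at Stage A were all of other TIP. TIP4-4 (Cluster-20417.140203) had 0.800 to 43.8 FPKM (median 13.2) at Stage A, against 0.287 to 22.3 FPKM (median 5.39) at Stage C (log2 fold change 1.52 ± 0.26 (SE), adjusted p = 2.86e-06). TIP3-1 (Cluster-20417.317401) and TIP3-1 (Cluster-20417.351575), matches to a rice isoform of a group best known from seed vacuoles, reached only medians of 0.180 and 0.110 FPKM at Stage A (log2 fold changes 1.75 and 1.38). Their calls were lost with limma-trend, at 0.96 and 0.84, and without replicate 3, at 0.84 and 0.57, and that of the second also without replicate 1, at 1.29, and without 'Peter Stuyvesant', at 1.24.

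Stage A was also compared with Stage B, the green bud. With 27 members higher and 32 lower, 47.6% were called, which is close to the 47.0% of all unigenes (19.0% higher and 28.0% lower). The median log2 fold change was -0.01 over the members and -0.27 over all unigenes. The split was 22 higher and 37 lower with DESeq2 size factors, against 34494 and 64170 of all 202252 unigenes. With library totals it was 12 and 43, against 24643 and 94144, and the medians were -0.66 over the members and -0.91 over all unigenes. This comparison shares the Stage B flowers with that of Stage C and the Stage A flowers with that above. In PIP2, 10 were higher and 5 lower of 24, in PIP1 3 and 3 of 17, in TIP1 2 and 0 of 6, in TIP2 0 and 5 of 19, in other TIP 6 and 3 of 17, in NIP 4 and 11 of 29, in SIP 2 and 3 of 8 and in the other PIP 0 and 2 of 4.

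The widest rise between green bud and anthesis was that of TIP4-4 (Cluster-20417.140203), a match to a maize TIP, with 0.800 to 43.8 FPKM (median 13.2) at Stage A, against 0.0367 to 0.680 FPKM (median 0.107) at Stage B (log2 fold change 6.95 ± 0.35 (SE), adjusted p = 1.23e-26). It was also the only member called higher at both steps. NIP3-1 (Cluster-20417.238206) had 10.99 to 34.8 FPKM (median 20.4) at Stage A, against 1.51 to 4.68 FPKM (median 2.97) at Stage B (log2 fold change 3.42 ± 0.13 (SE), adjusted p = 2.05e-31), and NIP3-1 (Cluster-20417.195961) rose by 3.15 (adjusted p = 1.47e-29). No Stage A flower overlapped with Stage B in these 3 unigenes. PIP1-1 (Cluster-20417.237784), PIP1-2 (Cluster-20417.239564) and PIP2-4 (Cluster-20417.238902) were still above the green bud, by 3.02, 2.98 and 2.13 (adjusted p = 3.55e-25, 4.95e-26 and 1.56e-23). SIP1-2 (Cluster-20417.244811) had 143 to 529.7 FPKM (median 215) at Stage A, against 116 to 220.0 FPKM (median 156) at Stage B (log2 fold change 1.22 ± 0.10 (SE), adjusted p = 1.04e-16), yet only 0.57 with library totals. With library totals the values of TIP-type (Cluster-20417.239836) and NIP5-1 (Cluster-20417.211511) were 0.51 in place of 1.14 and 0.93 in place of 1.59, and both calls were lost. The calls of TIP1-1 (Cluster-20417.238579) at 1.07 and TIP1-1 (Cluster-20417.237269) at 1.05 were lost in more ways. They had 0.93 and 0.91 with DESeq2 and with its size factors, 0.44 and 0.42 with library totals, and 0.99 and 0.90 without replicate 3, and the second had 0.99 with no filter on low counts and 0.92 on single libraries with no covariate.

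The 32 members that fell over the whole course included 3 NIP1-1, 3 NIP1-3 and 2 TIP2-2 unigenes. TIP2-2 (Cluster-20417.240265) had 0 to 5.94 FPKM (median 0.440) at Stage A, against 27.1 to 120.2 FPKM (median 53.4) at Stage B (log2 fold change -5.34 ± 0.35 (SE), adjusted p = 2.37e-21), and TIP2-2 (Cluster-20417.239053) fell by 5.17 on the log2 scale (adjusted p = 5.05e-20). NIP1-3 (Cluster-20417.243490) had 5.40 to 42.6 FPKM (median 16.0) at Stage A, against 62.9 to 408 FPKM (median 125) at Stage B (log2 fold change -2.38 ± 0.16 (SE), adjusted p = 1.86e-20). NIP1-1 (Cluster-20417.235423) had 2.38 to 24.8 FPKM (median 7.63) at Stage A, against 36.7 to 198 FPKM (median 65.6) at Stage B (log2 fold change -2.56 ± 0.17 (SE), adjusted p = 3.49e-20). In these 4 unigenes every Stage A flower lay below every Stage B flower. NIP1-1 (Cluster-20417.225917) fell by 3.53 (adjusted p = 1.61e-17). The sign of a small change depended on the scale: PIP1-2 (Cluster-20417.236898) had a lower mean FPKM at Stage A than at Stage B in all 7 cultivars, with 224 to 509 FPKM (median 368) against 373 to 716 FPKM (median 482), whereas its TMM-scaled log2 fold change was 0.30 and not called. Counting the steps together, 27 members were higher at Stage C with no call between Stage A and Stage C, 15 were lower at Stage C with no later call, 11 were lower at both steps, and 59 were called at neither. The shares of all unigenes with these patterns were not counted.

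Partitions were compared to see where in the perianth the aquaporins were expressed. Averaged over the stages, 11 of 115 members tested were higher and 4 lower in the tube than in the lobes, that is, 13.0% called, against 4.37% of all unigenes (3.24% higher and 1.13% lower). With library totals the split was 14 higher and 0 lower, against 7578 and 1232 of all 167352 unigenes. The limma-trend fit called 9 members in all, against 1.29% of all unigenes. The log2 fold changes with TMM scaling were 1.12 to 2.34 for the higher and -1.15 to -1.004 for the lower members, so that the lower ones all lay near the threshold. By class the calls were 5 higher and 1 lower of 26 NIP, 3 higher and 2 lower of 15 other TIP, 0 higher and 1 lower of 19 TIP2, and 1 higher in each of PIP2, SIP and the other PIP, while 0 of 17 PIP1 and 0 of 6 TIP1 were called. At an unadjusted p under 0.05, 12 PIP1 and 6 TIP1 differed, against 61936 of 167352 unigenes. Stamen tissue markers differed between the partitions too. The 6 AGAMOUS-type unigenes, which mark stamens and carpels, summed to 1.32 to 61.4 FPKM in tube libraries (median 25.8), against 0.540 to 16.5 FPKM in outer lobes (median 2.91) and 0.530 to 13.2 FPKM in inner lobes (median 3.58). Of 60 stamen and pollen markers, 21 of 47 tested were higher in the tube and 0 lower. The part of such tissue in the tube results was not tested.

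The boron-type NIPs were the clearest tube members. NIP5-1 (Cluster-20417.211511) had 39.4 to 301 FPKM (median 156) in the 63 tube libraries, against 8.47 to 202 FPKM (median 44.2) in outer and 6.80 to 128 FPKM (median 40.8) in inner lobes (log2 fold change 1.46 ± 0.08 (SE), adjusted p = 1.42e-41). NIP5-1 (Cluster-20417.219030) had 1.75 to 153 FPKM (median 58.9) in the tube, against 0 to 76.99 FPKM (median 22.7) in outer and 0.350 to 69.1 FPKM (median 20.3) in inner lobes (log2 fold change 1.65 ± 0.11 (SE), adjusted p = 1.12e-29). The ranges over all stages overlapped, but within flowers the tube exceeded both lobes in 61 of 63 flowers for the first and in 60 of 63 for the second. NIP3-1 (Cluster-20417.238206) had 16.3 to 54.5 FPKM (median 30.0) in the tube at Stage A, against 6.88 to 24.1 FPKM (median 13.5) in outer and 7.08 to 25.7 FPKM (median 14.8) in inner lobes (log2 fold change 1.14 ± 0.11 (SE), adjusted p = 1.96e-16). Over all stages its log2 fold change was 1.40 (adjusted p = 8.43e-43), and that of NIP3-1 (Cluster-20417.195961) was 1.49 (adjusted p = 3.25e-41). Their tubes exceeded both lobes in 62 and 61 of the 63 flowers. TIP3-1 (Cluster-20417.317401), at medians under 1 FPKM in each partition, was higher in the tube as well (log2 fold change 1.88 ± 0.25 (SE), adjusted p = 6.79e-11), but limma-trend gave 0.79 and no call. The other members higher in the tube were NIP3-1 Cluster-20417.242717 (log2 fold change 1.51), TIP5-1 Cluster-20417.220770 (2.34), PIP2-5 Cluster-20417.119506 (1.37), TIP3-1 Cluster-20417.351575 (1.29), PIP-type Cluster-20417.274470 (1.15) and SIP2-1 Cluster-20417.270452 (1.12), the last 5 with means under 3 FPKM. With limma-trend Cluster-20417.351575 had 0.50 and Cluster-20417.270452 had 0.64, and neither was called.

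Lower in the tube were 3 vacuolar members and NIP1-1 (Cluster-20417.230064), the last with a log2 fold change of -1.004. TIP2-1 (Cluster-20417.240547), a match to a rice TIP2, had 2.10 to 88.4 FPKM (median 24.0) in the tube, against 2.34 to 185 FPKM (median 53.2) in outer and 3.10 to 143 FPKM (median 46.1) in inner lobes (log2 fold change -1.15 ± 0.10 (SE), adjusted p = 1.33e-20). TIP-type (Cluster-20417.230605) and TIP-type (Cluster-20417.236751), matches to a snapdragon TIP, had log2 fold changes of -1.06 and -1.05 (adjusted p = 7.87e-20 and 3.71e-17). The values of the 3 TIP unigenes were -0.99, -0.90 and -0.89 with library totals and so no longer called. TIP2-1 (Cluster-20417.223721) was just outside the threshold at -0.97, and at -1.02 with the flower as a block it was called.

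**Figure D3:**
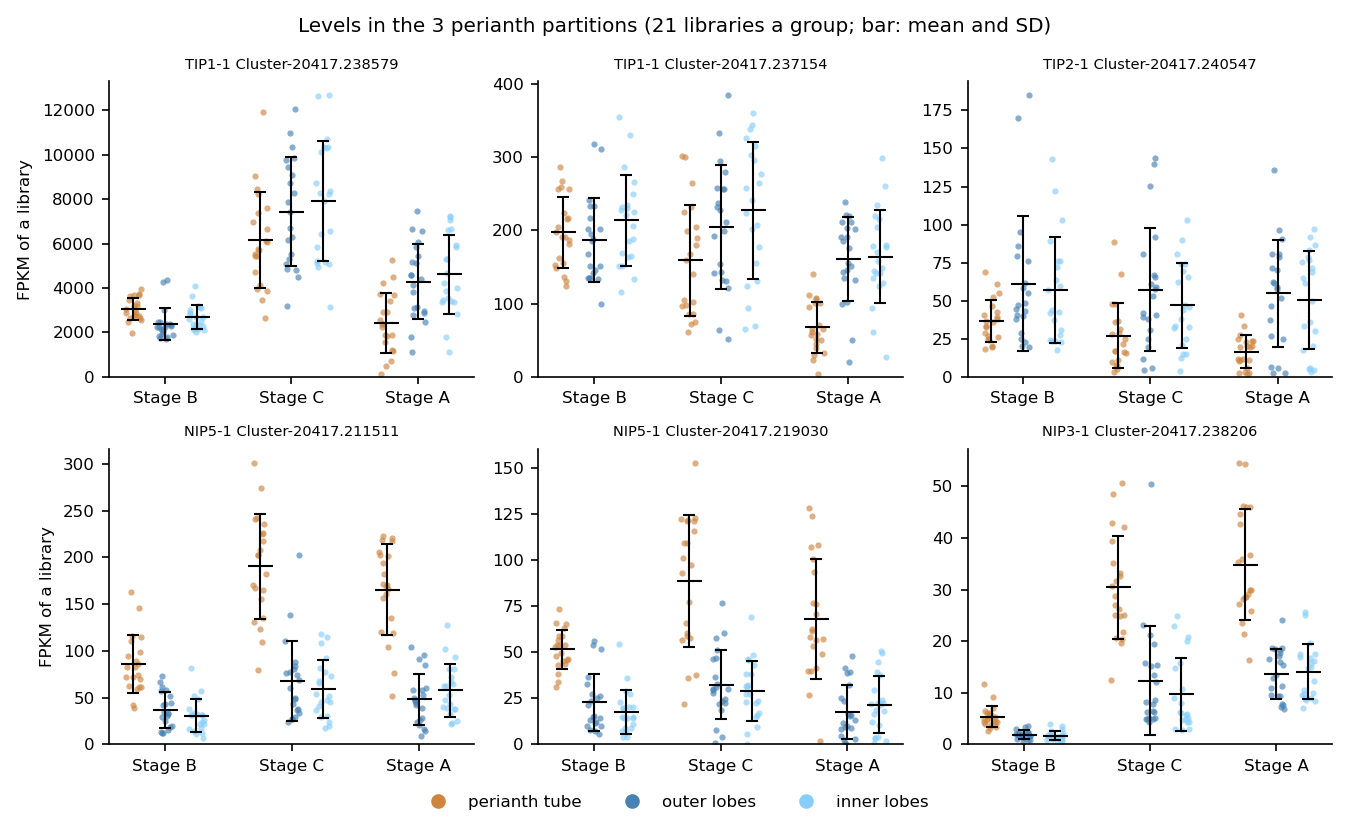
FPKM of 6 members in each library (y axis, FPKM) by partition (tube, outer lobes, inner lobes) at each stage; points are the 21 libraries of a stage and partition and bars the mean ± SD. The unigenes were picked from the named members after their values were seen. NIP5-1 Cluster-20417.211511 was higher in the tube at all stages, with Stage A medians of 170.1 FPKM in the tube, 46.9 FPKM in outer and 52.8 FPKM in inner lobes, while TIP1-1 Cluster-20417.238579 was lower in the tube at Stage A.

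The difference between partitions changed with the stage. In the test of partition by stage, 47 of 115 members passed (40.9%), against 11.7% of all unigenes, among them 6 of 6 TIP1, 15 of 21 PIP2, 7 of 17 PIP1, 7 of 26 NIP, 5 of 15 other TIP, 4 of 19 TIP2 and 3 of 7 SIP. Passing went with abundance, with 36 of the 56 members of at least 10 FPKM and 11 of the 59 others. With a stricter filter on low counts (filterByExpr) 47 of 96 members passed, against 18.5% of all unigenes. Tube against lobes gave 11 higher and 3 lower members at Stage B (12.2%, against 4.11% of all unigenes, 2.17% higher and 1.94% lower). It gave 13 higher and 3 lower at Stage C (13.9%, against 5.84%, 3.52% higher and 2.31% lower), and 20 higher and 18 lower at Stage A (33.0%, against 11.6%, 7.95% higher and 3.61% lower). At Stage A all 6 tested TIP1 were lower in the tube, with a median log2 fold change of -1.32, and 8 of 26 NIP were higher and 0 lower. The tube calls at single stages come from the main fit only and were not run under the alternatives. The median over TIP1 was -0.08 at Stage B and -0.57 at Stage C, where 0 of 6 were called. Within flowers, the TIP1 sum of the tube was below that of both lobes in 2 of 21 Stage B flowers, in 16 Stage C flowers and in 21 Stage A flowers. For the sum of all members the counts were 5, 16 and 21.

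TIP1-1, which conducts water into the vacuole, differed most clearly in open flowers. TIP1-1 (Cluster-20417.238579) had 138 to 5276 FPKM (median 2369.9) in the tube at Stage A, against 1109 to 7470.0 FPKM (median 4392) in outer and 1104 to 7256 FPKM (median 4242) in inner lobes (log2 fold change -1.14 ± 0.13 (SE), adjusted p = 3.57e-13). At Stage B the tube had 1978 to 3942 FPKM (median 3012), against 1718 to 4357 FPKM (median 2263) in outer and 2025 to 4114 FPKM (median 2628) in inner lobes, and the log2 fold change was 0.19 (adjusted p = 0.403). The tube was below both lobes in 21 of 21 Stage A flowers and in 2 of 21 Stage B flowers, and the interaction had an adjusted p of 6.27e-08. TIP1-1 (Cluster-20417.237154), a match to the rice isoform, had 3.34 to 140.4 FPKM (median 61.2) in the tube at Stage A, against 20.02 to 239 FPKM (median 175) in outer and 27.0 to 299 FPKM (median 158) in inner lobes (log2 fold change -1.52 ± 0.14 (SE), adjusted p = 4.17e-19). Its interaction had an adjusted p of 1.43e-08, and its tube was below both lobes in 21 of 21 flowers at Stage A and in 6 of 21 at Stage B. TIP1-1 (Cluster-20417.241870) and TIP1-1 (Cluster-20417.237269) had -1.29 and -1.09 at Stage A (adjusted p = 5.20e-15 and 8.96e-09).

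PIP calls at Stage A went both ways, with 1 higher and 2 lower in the tube of 17 PIP1, and 4 higher and 2 lower of 21 PIP2. The most abundant member of each class shifted towards lower values in the tube without reaching the threshold of size. PIP1-1 (Cluster-20417.237784) had log2 fold changes of tube against lobes of 0.04, -0.67 and -0.88 at Stages B, C and A (interaction, adjusted p = 1.44e-05). PIP2-4 (Cluster-20417.238902) had -0.22, -0.40 and -0.88 in the same order (interaction, adjusted p = 0.00125). Other members turned the opposite way. PIP2-2 (Cluster-20417.233259) had 117 to 416 FPKM (median 255) in the tube at Stage A, against 35.1 to 212 FPKM (median 118) in outer and 50.9 to 268 FPKM (median 149) in inner lobes. At Stage B it had 74.7 to 437 FPKM (median 158) in the tube, against 141 to 529 FPKM (median 242) in outer and 149 to 531 FPKM (median 284) in inner lobes. The log2 fold change was 0.69 at Stage A and -0.80 at Stage B (interaction, adjusted p = 9.24e-09), so this unigene was relatively low in the tube of green buds and high in that of open flowers. NIP1-1 (Cluster-20417.225917) did likewise, with -0.62, 0.64 and 1.95 over the 3 stages (interaction, adjusted p = 1.02e-14), at a time when its level in open flowers was down to a median of 2.12 FPKM in the tube. Stamen and pollen markers at Stage A summed to a median of 1293 FPKM in the tube, against 783 FPKM in outer and 729 FPKM in inner lobes, and their part in these shifts was not tested.

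**Figure D4:**
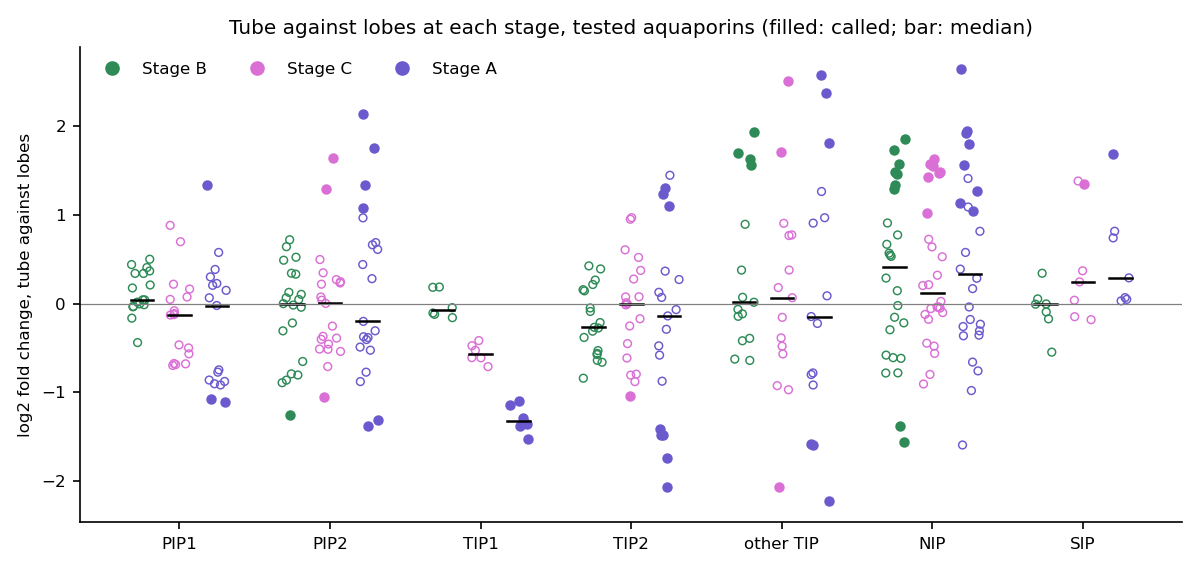
Log2 fold change of tube against lobes (y axis) for the tested members at Stage B, C and A, by class (x axis), without the 4 of the class other PIP. Filled points passed the thresholds, open points did not, and the bar is the median of the class. The TIP1 median was -0.08, -0.57 and -1.32 at Stages B, C and A.

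Outer and inner lobes gave no call for any aquaporin tested. Of the 115 members, 0 were called with edgeR, against 0.0394% of all unigenes (0.0305% higher and 0.00896% lower). At an unadjusted p under 0.05, 13 members differed, against 13675 of 167352 unigenes. The count of calls was 0 with limma-trend as well, where 14 had an unadjusted p under 0.05, and 0 with the flower as a block, where 25 did. The most abundant member, TIP1-1 (Cluster-20417.238579), had a log2 fold change of -0.09 ± 0.08 (SE) for outer against inner lobes (adjusted p = 0.896).

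Of 124 members tested between the 7 cultivars, 96 were called (77.4%), which is the share of all unigenes (77.6%). By class, 19 of 19 TIP2, 16 of 17 other TIP, 26 of 29 NIP, 17 of 24 PIP2, 10 of 17 PIP1, 4 of 8 SIP and 1 of 6 TIP1 were called, the last being TIP1-1 Cluster-20417.211444. At a mean of at least 10 FPKM 34 of 56 members were called, and below it 62 of 68. Each cultivar was also set against the mean of the other 6. 'Jan Bos' had 19 members higher and 14 lower, or 26.6% called, against 29.1% of all unigenes (19.4% higher and 9.67% lower). 'Pink Pearl' had 16 higher and 6 lower, against 24.6% of all unigenes (15.2% and 9.42%), and 'Gipsy Queen' 18 higher and 21 lower, against 31.2% (18.9% and 12.3%). 'City of Haarlem' had 25 higher and 13 lower, against 31.7% (20.8% and 10.9%), and 'China Pink' 15 higher and 7 lower, against 26.8% (22.4% and 4.35%). 'Delft Blue' had 17 higher and 5 lower, against 26.6% (22.6% and 3.95%), and 'Peter Stuyvesant' 22 higher and 11 lower, against 30.4% (21% and 9.38%). A total of 39 members had 0 counts in all 9 flowers of at least 1 cultivar, 24 of them among those tested and 0 among the 56 of at least 10 FPKM. A count of 0 allows up to 3 counts per cultivar, which is 0.0076 to 0.0081 CPM (counts scaled to the library total) and covers counting error only.

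PIP2-6 (Cluster-20417.232834), a match to a rice plasma membrane aquaporin, had the smallest p between cultivars among members of at least 10 FPKM (adjusted p = 7.07e-39 over 7 cultivars). It had 198 to 1384 FPKM (median 858) in 'Pink Pearl', 189.5 to 1015 FPKM (median 736) in 'Jan Bos', 151 to 1059.6 FPKM (median 536) in 'China Pink' and 155 to 824 FPKM (median 501) in 'Delft Blue'. It was lower in 'City of Haarlem' with 30.3 to 159 FPKM (median 117) and in 'Peter Stuyvesant' with 22.3 to 48.1 FPKM (median 32.6). In 'Gipsy Queen' it lay between 0 and 0.920 FPKM with a median of 0 FPKM, and all its Stage A flowers were listed at 0. The ranges of the 4 highest cultivars overlapped with each other and did not overlap with those of 'Peter Stuyvesant' or 'Gipsy Queen'.

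Other marked cultivar differences were in members of low level. TIP2-1 (Cluster-20417.288086) had 1.46 to 2.45 FPKM (median 1.99) in 'Jan Bos', against medians of 0 to 0.147 FPKM in the other 6 cultivars (adjusted p = 5.30e-30). TIP2-1 (Cluster-20417.275027) had 3.36 to 6.29 FPKM (median 4.13) in 'Jan Bos', against a highest flower of 2.30 FPKM in the other 6 (adjusted p = 1.61e-27). PIP-type (Cluster-20417.285184), a match to a tomato PIP, had 1.49 to 3.75 FPKM (median 3.10) in 'Jan Bos' and 0 counts in every flower of 'Gipsy Queen' (adjusted p = 2.82e-26). Among abundant members, 'City of Haarlem' was lower than the mean of the other 6 in PIP2-4 (Cluster-20417.237778), PIP2-2 (Cluster-20417.237802) and PIP2-7 (Cluster-20417.240970), with log2 fold changes of -1.09, -1.001 and -1.22 (adjusted p = 7.49e-12, 3.34e-10 and 1.14e-13). It was higher in NIP1-3 (Cluster-20417.243490) and NIP1-1 (Cluster-20417.235423), by 1.32 and 1.43 (adjusted p = 9.24e-11 and 8.77e-11), and lower in TIP-type (Cluster-20417.236751) at -2.68 (adjusted p = 2.39e-07). The 5 named PIP1 members with means above 300 FPKM were not called, with adjusted p of 7.33e-04 for Cluster-20417.237784, 0.00482 for Cluster-20417.239564, 0.515 for Cluster-20417.236898, 0.391 for Cluster-20417.238132 and 0.0523 for Cluster-20417.242774, and with fitted cultivar terms that spanned less than 1 on the log2 scale.

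'China Pink' was compared with 'Delft Blue', the cultivar it arose from. Of 124 members 0 were called with edgeR, against 0.265% of all unigenes (0.182% higher and 0.0821% lower). At an unadjusted p under 0.05, 24 members differed, against 19400 of 202252 unigenes. The count of calls was 0 with limma-trend as well, where 20 had an unadjusted p under 0.05, and 1 with DESeq2. That member, chosen for this after its values were seen, was PIP2-1 (Cluster-20417.264581), lower in 'China Pink' (log2 fold change -1.07, adjusted p = 0.0401 with DESeq2, and -1.09, adjusted p = 0.0798 with edgeR). TIP5-1 (Cluster-20417.220770), a match to an isoform known from pollen in *Arabidopsis*, was called with the replicate number as a block and without the 3 flowers that stood apart (adjusted p = 0.0401 and 0.0448), but not otherwise (log2 fold change 2.76, adjusted p = 0.0583 with edgeR). TIP1-1 (Cluster-20417.238579) had 2298 to 10701 FPKM (median 2993) in 'China Pink', against 2098 to 11255 FPKM (median 5394) in 'Delft Blue' (log2 fold change -0.30 ± 0.23 (SE), adjusted p = 0.745). PIP1-1 (Cluster-20417.237784) had a log2 fold change of -0.07 ± 0.22 (SE), PIP2-4 (Cluster-20417.238902) of 0.28 ± 0.18 and TIP1-1 (Cluster-20417.237269) of -0.85 ± 0.26 (adjusted p = 1.00, 0.657 and 0.166). The flowers of both cultivars overlapped in all of these.

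The course over the stages differed between cultivars in many members. In the test of stage by cultivar 58 of 124 passed (46.8%), against 23.3% of all unigenes, with 39 of the 56 members of at least 10 FPKM and 19 of the 68 others. Leaving out a replicate number lowered the count to 31 to 39, and the share of all unigenes to 9.53% to 10.4%. PIP1-1 (Cluster-20417.240079) was among the clearest (adjusted p = 3.21e-11). It had 22.4 ± 1.37 FPKM, 47.0 ± 6.27 FPKM and 113 ± 45.1 FPKM at Stages B, C and A in 'Gipsy Queen' (SD, n = 3 flowers), and in 'Delft Blue' 39.6 ± 14.2 FPKM, 92.3 ± 17.6 FPKM and 118 ± 47.6 FPKM. In 'Jan Bos' it had 38.6 ± 8.52 FPKM, 14.1 ± 7.46 FPKM and 4.30 ± 1.09 FPKM over the same stages, and in 'Pink Pearl' 50.1 ± 4.997 FPKM, 35.4 ± 9.41 FPKM and 14.5 ± 2.17 FPKM. Its level was thus higher at the later stages in 'Gipsy Queen' and 'Delft Blue' and lower in 'Jan Bos' and 'Pink Pearl'. PIP1-2 (Cluster-20417.241826) had 192 ± 35.6 FPKM, 416 ± 50.5 FPKM and 393 ± 10.5 FPKM at Stages B, C and A in 'City of Haarlem', whereas 'Jan Bos' had 182 ± 15.5 FPKM, 77.3 ± 23.0 FPKM and 34.1 ± 11.8 FPKM (interaction, adjusted p = 1.91e-10).

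Vacuolar members split by cultivar as well. TIP2-1 (Cluster-20417.223721) had 29.0 ± 3.40 FPKM, 85.4 ± 16.3 FPKM and 53.1 ± 5.20 FPKM at Stages B, C and A in 'Peter Stuyvesant', and 31.6 ± 7.93 FPKM, 5.36 ± 2.47 FPKM and 2.22 ± 0.626 FPKM in 'City of Haarlem' (interaction, adjusted p = 2.82e-11). The TIP2-1 of *Arabidopsis*, to which it matched, conducts water and ammonia. TIP-type (Cluster-20417.230605) had 51.0 ± 2.77 FPKM, 136 ± 14.9 FPKM and 86.0 ± 16.8 FPKM in 'Peter Stuyvesant', and 44.0 ± 9.90 FPKM, 4.74 ± 1.69 FPKM and 2.11 ± 0.647 FPKM in 'City of Haarlem' (interaction, adjusted p = 6.24e-11). 'Gipsy Queen' resembled 'City of Haarlem' in direction, with 110.1 ± 28.3 FPKM, 19.4 ± 5.93 FPKM and 11.9 ± 4.26 FPKM. TIP-type (Cluster-20417.236751), with an adjusted p of 3.26e-10, had 84.8 ± 9.95 FPKM, 188 ± 21.7 FPKM and 235 ± 51.1 FPKM in 'Delft Blue', and 62.7 ± 8.77 FPKM, 15.2 ± 9.21 FPKM and 6.03 ± 1.90 FPKM in 'City of Haarlem'. In these 3 unigenes the stage effect averaged over cultivars was not called, with Stage A against Stage B at -0.30, -0.37 and 0.18.

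**Figure D5:**
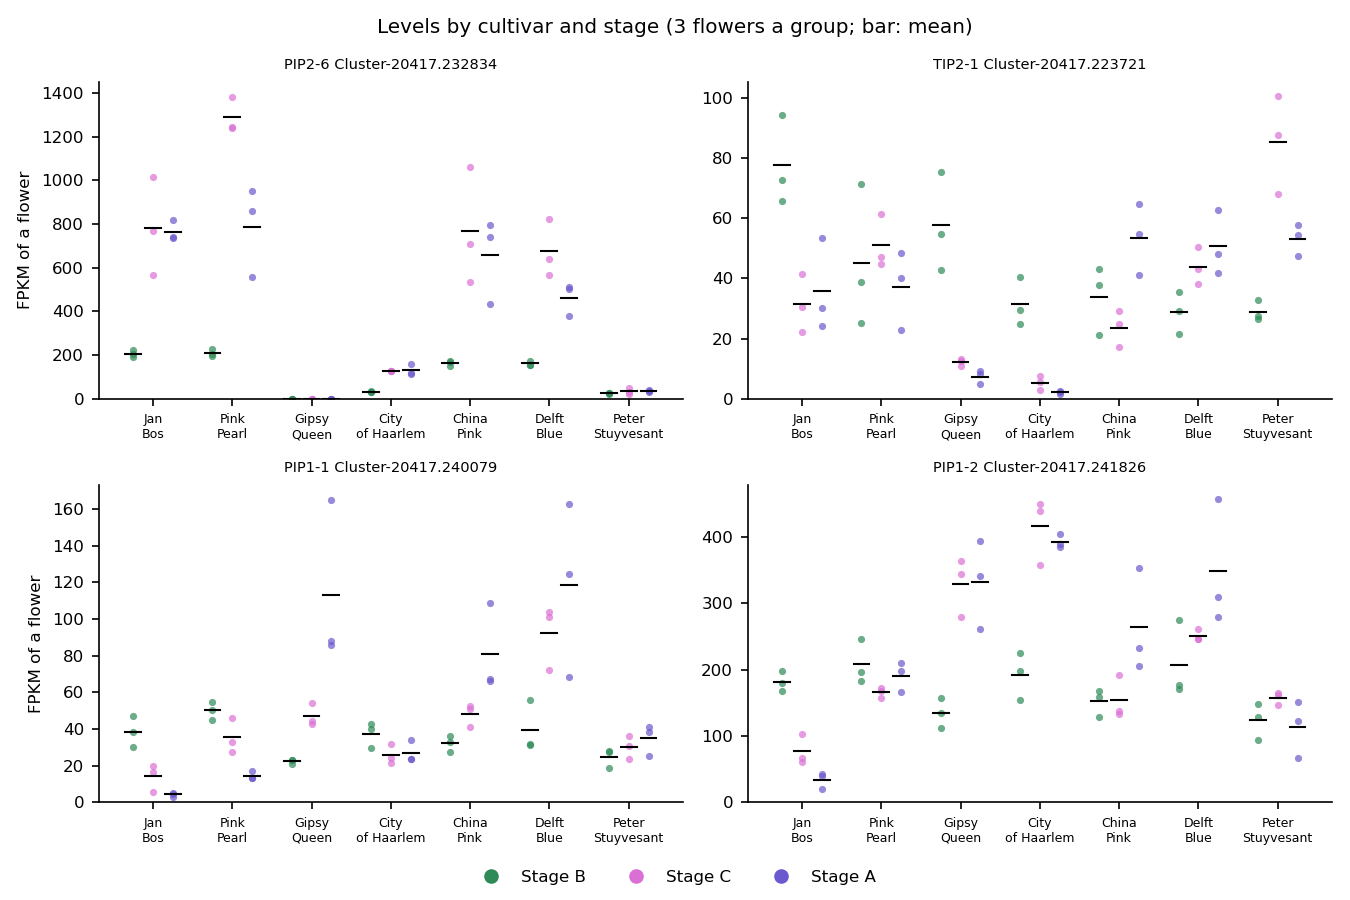
FPKM of 4 members in each flower (y axis, FPKM) by cultivar (x axis) and stage (colour); points are the 3 flowers of each cultivar and stage and bars their mean. The unigenes were picked from the named members after their values were seen. PIP2-6 Cluster-20417.232834 lay between 0 and 0.920 FPKM in 'Gipsy Queen' and between 198 and 1384 FPKM in 'Pink Pearl'.

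Genes that work beside aquaporins in filling the vacuole and extending the wall were counted for comparison, from lists found by words in the Swiss-Prot description. Vacuolar proton pumps, which energise solute uptake into the vacuole, were higher in 73 and lower in 7 of 193 tested unigenes at Stage C against Stage B (median log2 fold change 0.73), and in 16 and 3 at Stage A against Stage C. Plasma membrane proton pumps were higher in 37 and lower in 10 of 156 at Stage C against Stage B (median 0.09). Expansins, which loosen the wall, were higher in 23 and lower in 18 of 89 at Stage C against Stage B, and higher in 3 and lower in 20 at Stage A against Stage C (median -0.36). Potassium channels and transporters were higher in 35 and lower in 14 of 119 at Stage C against Stage B. Boron transporters, which export the boric acid that NIP5-1 admits in *Arabidopsis* roots, were higher in 20 and lower in 2 of 47 at Stage C against Stage B, and higher in 7 and lower in 0 of 44 in the tube against the lobes. The shares of all unigenes called in these comparisons are those given above, and nothing particular to a list follows from its counts.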

How the data were processed

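RNA was sequenced from 189 perianth libraries (poly-A enriched, paired-end, NovaSeq X Plus). The authors assembled transcripts de novo with Trinity, grouped them by CORSET, let each group stand as its longest transcript (the unigene), aligned reads with Bowtie and deposited 2 tables over 494326 unigenes, with RSEM expected counts and with FPKM, beside annotation columns. A median of 67.4% of reads was mapped per library. The expected counts were rounded. Members and gene lists were found by words in the Swiss-Prot description, and they were chosen with earlier results of these data known.

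Stages and cultivars were tested on counts summed over the 3 partitions of a flower (63 flowers, cultivar and stage as terms, 202252 unigenes), and partitions on the libraries (cultivar by stage, with partition within stage, 167352 unigenes). Both used edgeR 4.0.16 in R 4.3.3, with TMM scaling, a minimum of 10 counts in at least 3 columns, the quasi-likelihood test and Benjamini-Hochberg adjusted p over all unigenes tested. A call between cultivars needed a range of fitted cultivar terms over 1. Tests on simulated counts recovered the changes put in, but the F tests called somewhat more unchanged unigenes of low count than the threshold allows. FPKM was used for levels only, with the mean of the 3 partitions for a flower, and was not tested. A share or floor from counts covers counting error only.

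Named members were chosen by a rule: the 4 most abundant of each class, the up to 3 higher and 3 lower called members with the smallest p in each comparison, and the 4 with the smallest p in the tests between cultivars and of interaction. Other members named for a small count were chosen after their values were seen. The partitions of a replicate came from a single flower by the design text, and their deviations correlated with a median r of 0.44 (187 of 189 pairs over 0.1), so the flower pairs them. Alternatives were DESeq2 1.42.0 and its size factors, library totals, limma-trend (limma 3.58.1), other filters, the replicate number or flower as a block, and leaving out a replicate number, a cultivar or the 3 flowers that stood apart, the last and the library totals being chosen after seeing the data. No column of another series was present. Plots used matplotlib 3.10.9.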

Additional observations from a re-analysis of the deposited data

Results flagged for a closer look

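The course over the stages differed between cultivars, by the test of the interaction, in PIP1-2 (Cluster-20417.241826; adjusted p = 1.91e-10), PIP1-1 (Cluster-20417.240079; adjusted p = 3.21e-11), TIP2-1 (Cluster-20417.223721; adjusted p = 2.82e-11) and TIP-type (Cluster-20417.230605; adjusted p = 6.24e-11). The difference between tube and lobes changed with the stage in NIP1-1 (Cluster-20417.225917; adjusted p = 1.02e-14), PIP2-2 (Cluster-20417.233259; adjusted p = 9.24e-09), TIP1-1 (Cluster-20417.238579; adjusted p = 6.27e-08) and TIP1-1 (Cluster-20417.237154; adjusted p = 1.43e-08). In the first 2 of these the tube was low at Stage B and high at Stage A, and in both TIP1-1 unigenes it was low at Stage A.

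Aquaporin matches to animals and bacteria lay outside the rule but gave a signal above the limit of a count of 0. The highest value in a library was 2.78 FPKM for an AQPAe.a match (Cluster-20417.109493), 2.1 FPKM and 0.58 FPKM for AQPAn.G matches (Cluster-40315.0 and Cluster-20417.5297) and 0.75 FPKM for an Aquaporin Z match (Cluster-36702.0).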

How the results depend on the processing

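Of 262 results for named members, 190 kept their side of the threshold under every alternative that was run for them, and 205 did so when library totals, which ended 28 calls and added 4, were set aside. Not all 262 could be had from each fit: filterByExpr gave 261, DESeq2 192, the fit without 'Peter Stuyvesant' 135 and the fit on single libraries with no covariate 134. None of these results reversed where it was called in the main fit or in the alternative. A change of sign without a call in either was not counted. DESeq2 size factors ended 4 calls, DESeq2 7, limma-trend 13 and the absence of a filter on low counts 5. Leaving out replicate 1 ended 29 calls, replicate 2 ended 22 and replicate 3 ended 25. Without a replicate number, 16 to 28 members were called for Stage A against Stage C, 53 to 55 for Stage A against Stage B, 53 to 58 for Stage C against Stage B, 87 to 90 between cultivars, 15 to 16 for tube against lobes, 33 to 40 for partition by stage and 31 to 39 for stage by cultivar, while 0 were called for outer against inner lobes and for 'China Pink' against 'Delft Blue'. The fits without a replicate number have fewer flowers. Of all unigenes they called 9.53% to 10.4% for stage by cultivar in place of 23.3%. For partition by stage they called 7.63% to 7.84% in place of 11.7%, and for Stage A against Stage C 12.8% to 15.9% in place of 17.5%. For stage by cultivar DESeq2 and limma-trend each called 70 members. They called 32.3% and 39.4% of all unigenes there, against 23.3% in the main fit. 'China Pink' against 'Delft Blue' gave 1 member with DESeq2, 1 with the replicate block and 1 without the 3 flowers that stood apart. The shares of all unigenes were 0.141%, 0.317% and 0.288% in the same order. Tube against lobes gave 9 with limma-trend, which called 1.29% of all unigenes in place of 4.37%, and the cause was not tested. With the flower as a block tube against lobes gave 16 in place of 15 and partition by stage 57 in place of 47. Over all unigenes the block gave 4.42% in place of 4.37%, and 18.2% in place of 11.7%. Flowers of the same number in other groups shared only a number (median r 0.012). There the replicate block moved the counts between stages by at most 1, to 58 for Stage A against Stage B.

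In CPM in place of FPKM, which weights long unigenes more, the summed PIP1 was 2.35 on the log2 scale for Stage C over Stage B and 1.68 for Stage A over Stage B, and the summed PIP2 was 1.05 for Stage A over Stage B. The median over members of the log2(FPKM + pseudocount) difference, with a pseudocount of 0.1, was -0.18 for Stage C minus Stage B, -0.42 for Stage A minus Stage B and -0.32 for Stage A minus Stage C. Members under 1 FPKM rest on few counts, and 39 members had 0 counts in at least 1 cultivar, so low levels there were not detectable at this depth.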
